A study of Homo sapiens with 30 samples.

Results

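The messenger RNAs of 10 inflammatory cytokines and chemokines (IL6, IL11, LIF, IL1A, IL1B, IL8, CXCL1, CXCL2, CXCL3 and CCL20) were described in breast cancer cell lines treated with BMP7. Members were all probes on the array whose gene name is one of these symbols, which gave 14 probes for 10 genes among 41000 probes. The data comprised 30 two-colour Agilent arrays of 5 established human breast cancer lines, HCC1954, MDA-MB-231, MDA-MB-361, T-47D and ZR-75-30, at 30 min and 1, 3, 6, 12 and 24 h. On every array, cells given vehicle (Cy3) were compared with cells of the same line given recombinant human BMP7 at 50 ng/ml (Cy5) for the same time. Each sample pooled 3 cultures and there was 1 array per line and time, so the spread and the p-values given here rest on the 6 time points of a line and hold changes with time and technical error together. BMP7 was in the Cy5 channel throughout, so dye and treatment cannot be told apart for a probe. By the study's methods, lines were grown in their recommended conditions, except that MDA-MB-231 and T-47D were given other serum concentrations. Differences in level between lines therefore cannot be told apart from differences in culture conditions.

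These genes belong to different families of secreted signals. IL6, IL11 and LIF act through receptors that share the subunit gp130 (IL6ST) and activate STAT3. IL1A and IL1B bind the interleukin-1 receptor and switch on NF-kappaB, whose targets include IL6, IL8, CXCL1, CXCL2, CXCL3 and CCL20. The chemokines CXCL1, CXCL2 and CXCL3 attract neutrophils through the receptor CXCR2, and CCL20 attracts cells carrying CCR6. In breast cancer cell lines, high IL6 and IL8 are known from lines with mesenchymal or basal features. BMP7 is a ligand of the TGF-beta family whose receptors phosphorylate SMAD1, SMAD5 and SMAD8, with ID1 as a well known target.

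Levels are log2 intensities of the vehicle channel after A-quantile normalization between arrays and can be compared between lines for a probe, not between probes. A level is called well above background where the scanning software marked the spot so. Log ratios are log2 BMP7/vehicle, and a log ratio of exactly 0 arises where the software found no usable signal in either channel. Per array, both channels were well above background at 54.6% to 69.1% of spots, and 1 array, MDA-MB-231 at 6 h, had 6.32% of its spots marked as outliers, which were left out. The arrays lay on 13 slides, of which 1 held more than 1 line, and 6 arrays belonged to a second scan batch. The epithelial keratins KRT8 and KRT18 were well above background on all arrays by their brighter probes. ESR1 (A_23_P309739) was well above background on no array of MDA-MB-231 and on all arrays of the other lines. Its mean was 6.06 in HCC1954 and 9.21 to 11.04 in MDA-MB-361, T-47D and ZR-75-30. The other ESR1 probes disagreed. A_24_P383478 was well above background on 5 arrays of MDA-MB-231, and A_24_P325215 was so in ZR-75-30 alone. VIM (A_23_P161190) had its highest mean level, 16.85, in MDA-MB-231, its next highest, 14.35, in HCC1954 and its lowest, 4.90, in MDA-MB-361. The leukocyte markers PTPRC and LYZ were well above background in the vehicle channel on no array, while CD14 was so on all 30 and CD68 on 21. ID1 was read as a check of the treatment. Its mean log ratio from 3 to 24 h was highest in MDA-MB-231 (1.79), followed by MDA-MB-361 (1.32), HCC1954 (1.14), ZR-75-30 (0.62) and T-47D (0.60), and it rose against the first hour by 0.85 ± 0.18 (SE, limma adjusted p = 0.0354).

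The promoters of CXCL1, CXCL2, CXCL3, IL8 and IL6 are shown because they share the letters of a kappaB element close to the start, while CXCL1, CXCL2 and CXCL3, which are close relatives, differed in their order over the lines. The stretches are from RefSeq on GRCh38.p14, are given 5′ to 3′ on the strand of the gene and end before the transcription start. Capitals mark matches, searched on both strands, to a kappaB motif of 10 letters with any base at 1 position, to the shorter kappaB letters GGAATTTCC, to the AP-1 letters TGANTCA and to the TATA box letters TATAAA.
CXCL1 (chr4:73869283-73869362, plus strand): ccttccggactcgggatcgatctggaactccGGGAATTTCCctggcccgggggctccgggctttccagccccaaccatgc
CXCL2 (chr4:74099225-74099304, minus strand): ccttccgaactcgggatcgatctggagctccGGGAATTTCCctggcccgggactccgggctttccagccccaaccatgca
CXCL3 (chr4:74038720-74038799, minus strand): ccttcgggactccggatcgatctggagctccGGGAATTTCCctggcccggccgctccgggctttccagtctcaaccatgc
IL8, named CXCL8 by RefSeq (chr4:73740419-73740548, plus strand): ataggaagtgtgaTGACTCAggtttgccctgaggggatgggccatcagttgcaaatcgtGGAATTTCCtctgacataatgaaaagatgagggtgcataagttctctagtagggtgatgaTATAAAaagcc
IL6 (chr7:22727090-22727179, plus strand): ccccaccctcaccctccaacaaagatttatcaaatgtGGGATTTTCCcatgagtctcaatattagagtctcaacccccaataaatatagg

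Set side by side without gaps from the same base before the kappaB match, the 80 bases of CXCL1 and CXCL3 were identical at 73 positions. Those of CXCL1 and CXCL2 were identical at 60. The CXCL2 stretch lacks a base shortly after the kappaB match, so its later bases were compared out of register. The count of 60 therefore does not show that CXCL2 is less like CXCL1 than CXCL3 is. The kappaB motif of 10 letters stood in the 250 bases before the start of 4 of the 9 member genes with a promoter in the table, CXCL1, CXCL2, CXCL3 and IL6, and in 0.527% of the 35116 promoters. The shorter GGAATTTCC, which lies inside the longer motif in CXCL1, CXCL2 and CXCL3, was found in these and in IL8, and in 0.413% of all promoters. TGANTCA was found in IL8, IL11 and IL1A and in 6.57% of all promoters, and TATAAA in IL8, CCL20 and IL1A and in 10.7%. The letters GGCGCC, a GC-rich sequence bound by SMAD1, were in none of the 9 and in 16.4% of all promoters. A match of letters is a description and not a measured site. CXCL1, CXCL2 and CXCL3 are close relatives, so their matches are not independent. The letters searched cover few forms of the kappaB element, and wider forms were not searched. The counts are therefore not a test of the members against all promoters. LIF was not in the table.

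With vehicle alone, the cytokines differed strongly between the lines, and the lines HCC1954 and MDA-MB-231 held most of the high levels. Of the 14 probes, 12 differed in vehicle level over the 5 lines (limma F test, adjusted p under 0.05), where 68.7% of all probes did. In pairs of lines, the share of all probes that passed was 36.8%, 41.8%, 39.5% and 36.6% for HCC1954 against MDA-MB-231, MDA-MB-361, T-47D and ZR-75-30. It was 45%, 45.2% and 45.8% for MDA-MB-231 against the latter 3 lines, 40.1% and 36.5% for MDA-MB-361 against T-47D and ZR-75-30, and 41.9% for T-47D against ZR-75-30. HCC1954 had the highest mean of IL8, LIF, CXCL2 and, by probe A_24_P183150, CXCL3, and MDA-MB-231 that of IL6, IL11, IL1B and CXCL1. In MDA-MB-361, only IL11 was well above background on all 6 arrays by the probe read for the gene, apart from the CXCL3 probe A_24_P251764 described below.

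**Figure D1:**
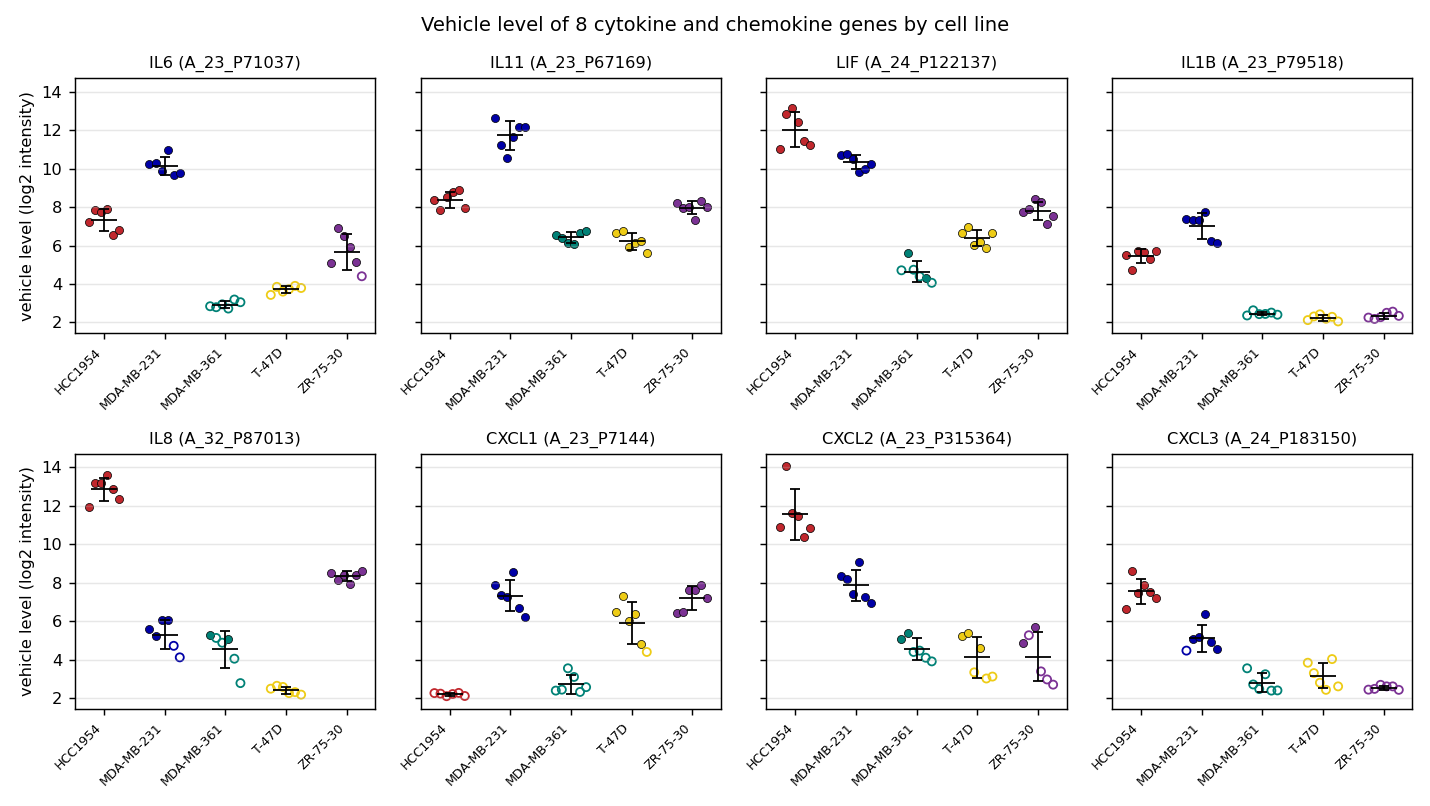
Vehicle level (log2 intensity, vertical axis) of 8 genes in the 5 lines, with 1 point per array in order of time, filled where the spot was well above background, and the mean ± SD of 6 arrays in black. IL8 spans from 12.86 in HCC1954 to 2.41 in T-47D, and CXCL1 has no filled point in HCC1954.

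IL6, the founding member of its family and an activator of STAT3, was at 10.25, 10.28, 9.87, 10.95, 9.68 and 9.75 from 30 min to 24 h in MDA-MB-231. In HCC1954 it was at 7.21, 7.84, 7.75, 7.90, 6.55 and 6.83, so that the arrays of these lines did not overlap. The means, 10.13 ± 0.47 and 7.35 ± 0.57 (SD, n = 6), were 6.89-fold apart (limma adjusted p = 2.08e-08). ZR-75-30 followed at 5.66 ± 0.95 with 5 of 6 arrays well above background, 3.22-fold below HCC1954 (limma adjusted p = 9.59e-05), although its highest array, 6.90, overlapped the range of HCC1954. In T-47D and MDA-MB-361 no array was well above background, and MDA-MB-231 was at least 44-fold and 52.5-fold higher. Here and below, "at least" sets the mean of the brighter line against, per array, the lowest level among probes well above background or the dim probe's own level, whichever is higher.

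IL11, which signals through IL11RA and gp130, had all 30 vehicle spots well above background. MDA-MB-231 stood apart at 11.74 ± 0.76 (range 10.56 to 12.65), 10.2-fold above HCC1954 at 8.39 ± 0.41 (limma adjusted p = 3.01e-10). HCC1954 and ZR-75-30 (7.96 ± 0.33) overlapped and were not told apart (limma adjusted p = 0.236), and neither were MDA-MB-361 (6.42 ± 0.28) and T-47D (6.21 ± 0.43, limma adjusted p = 0.633).

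LIF, a gp130 cytokine that acts through LIFR, was graded over all 5 lines by the brighter of its probes, A_24_P122137. HCC1954 was at 12.02 ± 0.90, MDA-MB-231 at 10.34 ± 0.38, ZR-75-30 at 7.82 ± 0.47, T-47D at 6.38 ± 0.42 and MDA-MB-361 at 4.64 ± 0.55 (SD, n = 6). Each neighbour in this order differed from the next (limma adjusted p from 9.41e-08 to 0.00126), and HCC1954 was 167-fold above MDA-MB-361, where 2 of 6 arrays were well above background. The second LIF probe, A_24_P233488, was well above background on 4 arrays and had its highest mean in the same line.

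IL1B, a main trigger of NF-kappaB, was well above background on all arrays of HCC1954 and MDA-MB-231 and on none of the other lines. It was at 7.01 ± 0.67 in MDA-MB-231 and at 5.44 ± 0.38 in HCC1954, 2.97-fold apart (limma adjusted p = 1.70e-06), and at least 5.06-fold higher in MDA-MB-231 than in T-47D. IL1A, which binds the same receptor, was well above background on no array in either channel, so its F test (adjusted p = 0.0119) compared values at background. IL6, IL1A and IL1B were each printed 10 times per array, unlike the other members with 1 spot per array.

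IL8, a chemoattractant of neutrophils, had the widest range. In HCC1954 it was at 11.96, 13.18, 13.20, 13.60, 12.88 and 12.35 from 30 min to 24 h, and in ZR-75-30 at 8.50, 8.13, 8.41, 7.92, 8.42 and 8.61. In T-47D all 6 values lay between 2.18 and 2.64 and none was well above background. HCC1954 was thus 23.1-fold above ZR-75-30 (limma adjusted p = 4.33e-11) and at least 292-fold above T-47D. MDA-MB-231 was at 5.30 ± 0.77 with 4 of 6 arrays well above background, and MDA-MB-361 at 4.53 ± 0.96 with 2 of 6. The second probe named IL8, A_23_P89380, is placed by the array files on chromosome 17 (chr17:39682083-39682142, hg18), away from IL8 on chromosome 4 (chr4:74828129-74828188, hg18). It was well above background on no array, and no value of IL8 was taken from it.

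The 3 chemokines CXCL1, CXCL2 and CXCL3 did not share their order. CXCL1 was at 7.33 ± 0.82 in MDA-MB-231, 7.22 ± 0.62 in ZR-75-30 and 5.90 ± 1.09 in T-47D (SD, n = 6), and at 2.20 ± 0.07 in HCC1954, where no array was well above background. It was at least 8.55-fold higher in MDA-MB-231 than in HCC1954 (limma adjusted p = 1.19e-10), while MDA-MB-231 and ZR-75-30 were not told apart (limma adjusted p = 0.559). CXCL2 (A_23_P315364) was instead highest in HCC1954, at 11.56 ± 1.32, and next highest in MDA-MB-231, at 7.87 ± 0.80, 13-fold apart (limma adjusted p = 4.49e-05). In MDA-MB-361, T-47D and ZR-75-30 it was at 4.56, 4.12 and 4.14, with 2, 3 and 2 of 6 arrays well above background, and no pair of these lines was told apart. The second CXCL2 probe had the same 2 lines as highest, at 8.41 ± 1.18 and 5.16 ± 0.74, and over the 30 arrays the probes correlated with r = 0.88. The array files list an accession of CXCL3 beside that of CXCL2 for it, so the 2 genes may share it.

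CXCL3 was read from probes that disagreed. A_24_P183150 was well above background on all 6 arrays of HCC1954 (7.55 ± 0.65), on 5 of MDA-MB-231 (5.10 ± 0.70) and on none of the other lines, an order like that of CXCL2. A_24_P251764, brighter on average and placed over a stretch of chr4:75121855-75122729 (hg18) that is longer than a probe, was well above background in the vehicle channel on all 30 arrays. It went from 5.50 and 5.80 in the first hour to 11.09 at 24 h in T-47D, and 4 of its 30 spots were marked as outliers. The vehicle levels of the probes correlated with r = 0.47 over 26 arrays, so levels of CXCL3 are uncertain. CCL20 was well above background in the vehicle channel on 1 array, HCC1954 at 1 h, and did not differ between lines (limma F adjusted p = 0.557).

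On the 1 slide that held arrays of both MDA-MB-231 and ZR-75-30 (30 min and 6 h of each), IL6 was at 10.25 and 10.95 in MDA-MB-231 against 5.09 and 5.91 in ZR-75-30. IL8 was at 5.60 and 6.07 against 8.50 and 7.92, so it was ZR-75-30 that was higher. The order of these lines was thus the same within the slide as over all arrays for both genes. Every other slide held 1 line, and the fits took the slide as a random block.

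Among all genes detected on at least 15 arrays, AKR1B10, an aldo-keto reductase, had the vehicle pattern most like that of IL8 (Pearson r = 0.971 over 30 arrays), followed by MAPK9 (r = 0.965) and GAD1 (r = 0.948). For IL6 these were NT5E, which encodes the cell surface enzyme CD73 (r = 0.971), PRKAG2 (r = 0.970) and TMEM133 (r = 0.967). Within the set, IL6 followed IL11 (r = 0.93) and IL1B (r = 0.91), and CXCL1 had r = -0.37 with CXCL2. The 30 points are 5 lines with 6 arrays each, so these values describe mainly how lines differ.

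Genes around the cytokines were read from a list of their pathways. Of 73 probes for 45 genes of receptors, inhibitors, transcription factors and other cytokines, 63 passed the F test of vehicle levels, which 68.7% of all probes passed. IL1RN, the antagonist of the interleukin-1 receptor, was well above background on all 6 arrays of HCC1954 at a mean of 9.83 and on no array of the other lines by its brighter probe. TNFAIP3, a feedback inhibitor of NF-kappaB, was at 9.70 in HCC1954 and 7.76 in MDA-MB-231 and between 4.02 and 4.20 in the others (A_24_P157926). CSF2 and IL24 were well above background on all arrays of these 2 lines by their brighter probes and on none of the others. CCR6, the receptor for CCL20, was detected on all 6 arrays of MDA-MB-361 at 4.94, and probes for the receptors IL8RA and IL8RB were well above background in the vehicle channel on no array except 1 of T-47D.

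With time in vehicle, no member changed past the threshold over the lines together. From 3 to 24 h against the first hour, 0 of the 14 probes were called by limma, where 0.00976% of all probes were, and at an unadjusted p under 0.05 there was 1, CXCL2. Its level fell by 1.07 ± 0.30 on the log2 scale (SE, limma adjusted p = 0.399), and the change was -0.73 without 1 h. In MDA-MB-361, CXCL2 was at 5.09 and 5.38 in the first hour and at 3.91 to 4.47 after it. None of these later values was well above background, so the size of that fall is uncertain. The median change was -0.09 over the 14 probes and 0.01 over all probes.

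The highest CXCL2 levels of the series were on 1 array, HCC1954 at 1 h. There CXCL2 was at 14.09 with vehicle and at 14.18 with BMP7, whereas the other 5 arrays lay between 10.39 and 11.63 with vehicle, an 8.20-fold difference from their mean. The second CXCL2 probe was at 10.74 with vehicle, against 7.45 to 8.34 on the others. CCL20 was at 5.01, its only vehicle value well above background, against 2.43 to 3.74. CXCL3 was at 8.59 by A_24_P183150, against 6.65 to 7.89, and LIF at 12.83, which only its value at 3 h, 13.15, exceeded. IL1B and IL11 moved the other way and had their lowest HCC1954 values at this time, 4.75 and 7.87, and CXCL1 stayed at background at 2.23. The BMP7 channel held the same pattern, with CCL20 at 4.66 against 2.49 to 3.37 and IL1B at 4.39 against 5.10 to 5.90. Neither of these values at 1 h was well above background in that channel. Both channels were read on the same array, so they are not independent. With a separate term for each line, a test added after the data had been seen, no member probe passed in HCC1954 (limma, 0 of 14, with 5 at an unadjusted p under 0.05; 0.288% of all probes passed and 6.55% had such a p), and CXCL2 had a change of -1.63 ± 0.67 (adjusted p = 0.572).

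**Figure D2:**
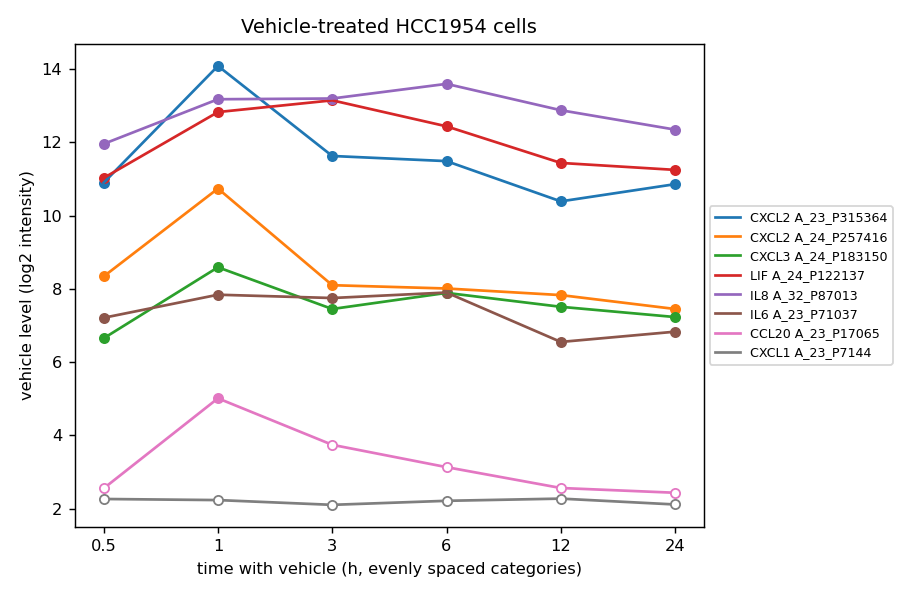
Vehicle level (log2 intensity) of 8 probes in HCC1954 by time in h, as evenly spaced categories, 1 array per point, filled where well above background. CXCL2, CXCL3 and CCL20 have their highest value at 1 h, where CXCL2 reaches 14.09, and CXCL1 stays between 2.10 and 2.27.

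Log ratios of BMP7 to vehicle were small for most of these genes. Over the lines together, 0 of the 14 probes passed for the mean log ratio (limma; 0.00976% of all probes did), and 1, the dim LIF probe, had an unadjusted p under 0.05. By the probe read for each gene, the mean over lines lay between -0.07 for CXCL3 and 0.06 for LIF. IL6 had a mean of -0.03 ± 0.05, IL8 of 0.02 ± 0.06, IL11 of -0.04 ± 0.06 and CXCL2 of 0.01 ± 0.07 (SE, 5 lines). Changes of at least 2-fold were 7 of 416 member values, or 1.68%, against 1.87% of all values. With both channels well above background they were 1 of 183, or 0.546%, against 0.798%, and this was CXCL1 in T-47D at 6 h (-1.11).

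**Figure D3:**
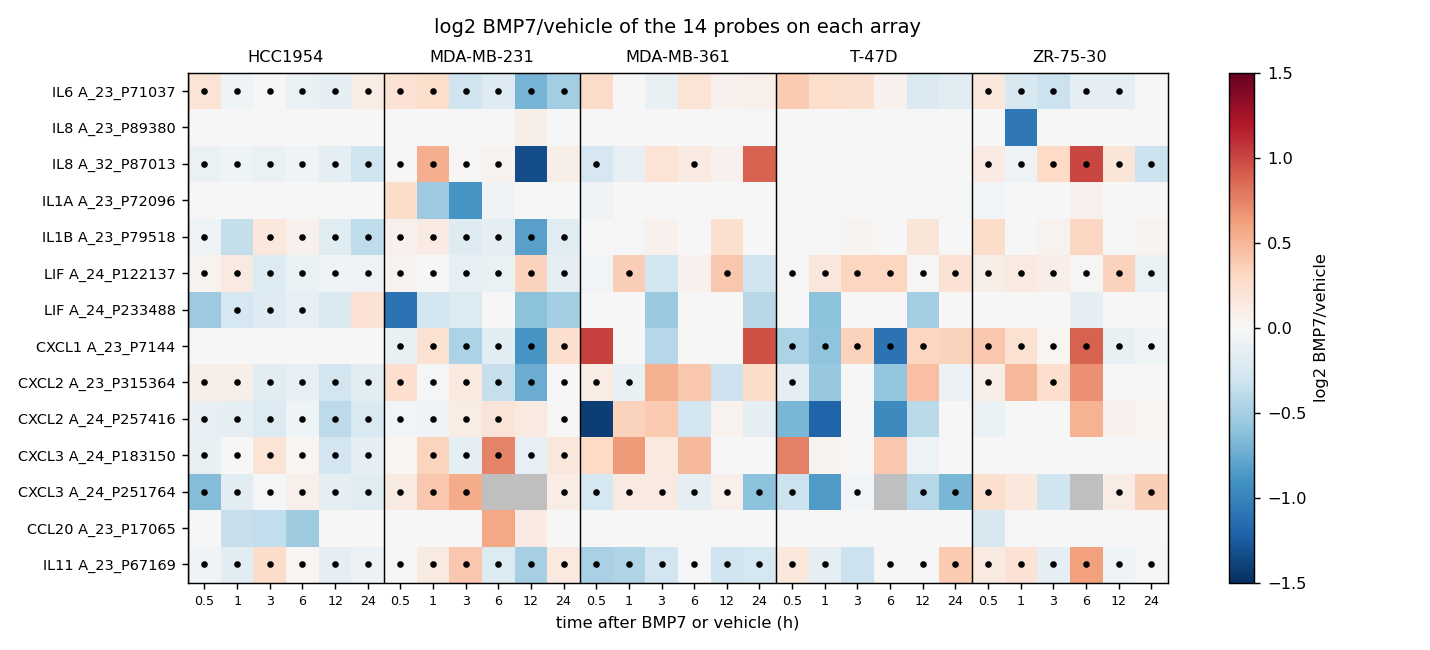
Log2 BMP7/vehicle (colour, from -1.5 in blue to 1.5 in red) of the 14 probes in rows on the 30 arrays in columns by line and time in h; black dots mark values with both channels well above background, and grey marks spots left out as outliers. Most dotted values are pale, and the strongest colours, such as -1.41 for the CXCL2 probe A_24_P257416 in MDA-MB-361 at 30 min, lack a dot.

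IL6 was the member with the clearest course after BMP7. From 3 to 24 h against the first hour its log ratio changed by -0.26 ± 0.07 (SE), and the limma adjusted p of 0.0622 missed the threshold, which 1.86% of all probes passed and 0 of the 14 member probes did. In MDA-MB-231, where IL6 was highest, the log ratio was 0.22 and 0.26 in the first hour and -0.30, -0.19, -0.70 and -0.52 at 3, 6, 12 and 24 h, so that all 4 later arrays lay below both early ones. The 10 IL6 spots of each of these arrays, less 2 marked as outliers at 6 h, had an SD of 0.02 to 0.05, far less than the difference between times, but they share the RNA of 1 pool. In T-47D, where IL6 was not well above background, the values went from 0.39 and 0.26 to -0.22 and -0.16 at 12 and 24 h, and in HCC1954 they stayed between -0.14 and 0.21. In ZR-75-30 they were 0.16 and -0.24 in the first hour and -0.32, -0.13, -0.14 and -0.01 later. The late mean there less that of the first hour was -0.11, and between -0.31 and 0.09 with any 1 array left out.

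With a late term for each line, added after the data had been seen, IL6 changed by -0.66 ± 0.15 in MDA-MB-231 (SE), with a limma adjusted p of 0.269, where 0.0244% of all probes passed. The only member probe that passed in any line was A_23_P89380, which is placed on chromosome 17 and was well above background on no array. It passed in ZR-75-30 (0.54 ± 0.14, limma adjusted p = 0.0376), where 4.49% of all probes passed. Its log ratio there was -1.07 at 1 h and 0 on every other array, so the call rests on 1 array. For IL6, a test of equal late terms in all lines gave a limma adjusted p of 0.800, where 0.0537% of all probes passed. A difference between the lines was thus not shown. The late mean less the mean of the first hour was -0.67, and leaving out any 1 array of MDA-MB-231 gave differences between -0.75 and -0.58. Both scan batches held the drop, with 0.26 against -0.30, -0.70 and -0.52 in the first and 0.22 against -0.19 in the second. ID1 on the same later arrays was raised by 1.91, 0.54, 2.10 and 2.62.

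**Figure D4:**
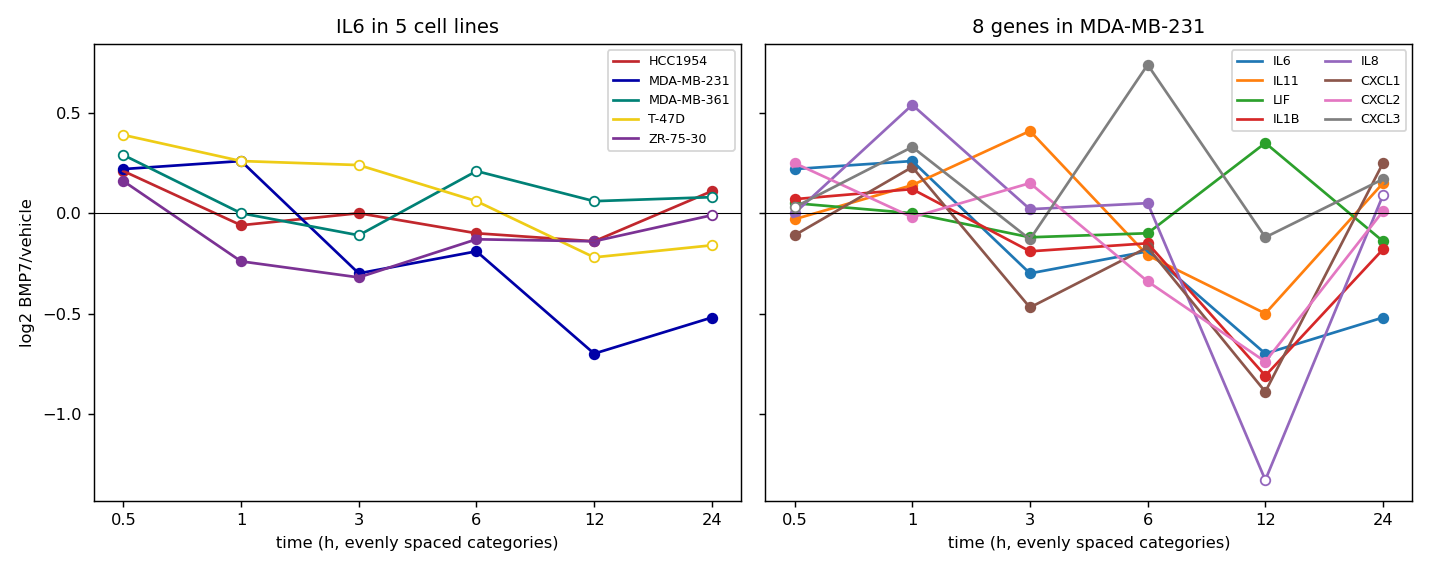
Log2 BMP7/vehicle (vertical axis) by time in h, as evenly spaced categories, for IL6 in 5 lines (left) and for 8 genes in MDA-MB-231 (right), 1 array per point, open where 1 or both channels were not well above background; CXCL3 is probe A_24_P183150. IL6 in MDA-MB-231 reaches -0.70 at 12 h, and IL6, IL1B, CXCL1, CXCL2, IL8 and IL11 have their lowest value there.

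At 12 h in MDA-MB-231 most members lay low on the same array. IL1B was at -0.81, CXCL1 at -0.89, CXCL2 at -0.74, IL6 at -0.70 and IL11 at -0.50, while LIF was at 0.35 and the second CXCL2 probe at 0.13. IL8 was at -1.33 with neither channel well above background. Of 6 genes with both channels well above background by the probe read, 5 were below 0 and 4 below -0.5, on an array where 11.9% of all probes detected in both channels were below -0.5. At 24 h 9.98% of such probes were below -0.5, but of 7 members only IL6 was. The array at 12 h has no replicate.

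The opposite was seen on the array of ZR-75-30 at 6 h, which stood apart from all others, with 17.4% of detected probes above 0.5 and 18.2% below -0.5. There IL8 was at 1.00, CXCL1 at 0.88 and IL11 at 0.62, 3 of 5 members detected in both channels, whereas at 3 and 12 h the same genes lay between -0.13 and 0.30. This array belongs to the second scan batch.

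Within a line, 3 member probes passed the threshold, 1 in MDA-MB-231 and 2 in T-47D, and for none did another probe of the gene pass. These calls depended on the processing. The call was lost under 11 of 16 alternatives for LIF and 9 of 17 for CXCL3, and for CXCL2 it was lost under 6 of 16 and turned direction under 1 more. With normexp and loess none of the 3 passed, at -0.03, -0.24 and -0.02 for LIF, CXCL3 and CXCL2. In MDA-MB-231 the dim LIF probe had a mean of -0.45 ± 0.11 (limma adjusted p = 0.0395; 1.58% of all probes were called), while the brighter LIF probe had values between -0.14 and 0.35. In T-47D the CXCL2 probe A_24_P257416 had -0.54 ± 0.17 (adjusted p = 0.0404) with no array well above background in the vehicle channel, and the CXCL3 probe A_24_P251764 had -0.46 ± 0.12 (limma adjusted p = 0.0219, 5 arrays), against 0.19 for the other CXCL3 probe, where 9.27% of all probes were called. In HCC1954 (3.82% of all probes), MDA-MB-361 (6.33%) and ZR-75-30 (8.10%), 0 member probes were called by limma. At an unadjusted p under 0.05 MDA-MB-231 had 5 of 14 (12.2% of all probes had such a p), T-47D had 3 (23.6%), MDA-MB-361 had 2 (22.7%), and HCC1954 (18.2%) and ZR-75-30 (23.8%) had 1 each. The 5 in MDA-MB-231 were IL6 (-0.21), IL1B (-0.20), IL1A (-0.20), the dim LIF probe and, in the opposite direction, the CXCL3 probe A_24_P251764 (0.29). For IL1A and the dim LIF probe, no array of this line had both channels well above background. The median of the 14 probes' means was between -0.07 and 0.09 in the 5 lines, and that of all probes was 0.00 in each.

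IL11 in MDA-MB-361, well above background in both channels on all 6 arrays, came close to the threshold. Its log ratios were -0.49, -0.45, -0.29, -0.03, -0.30 and -0.26 from 30 min to 24 h, all below 0, with a mean of -0.30 ± 0.11 (SE, limma adjusted p = 0.0815). With the time point as a replicate block, an alternative added after the data had been seen, it passed (limma adjusted p = 0.0418) and 5 member probes were called within a line. IL8 in HCC1954, its brightest line, was also below 0 on all 6 arrays, between -0.30 and -0.05, and LIF in T-47D was above 0 on all 6, between 0.02 and 0.32, but neither passed. With normexp and median scaling the mean of IL8 in HCC1954 was 0.32, in the opposite direction. Whether the response differed between the lines was tested directly, and 0 of 14 member probes passed (limma F), where 6.45% of all probes did, with 2 at an unadjusted p under 0.05. The lowest adjusted p was 0.0511, for CXCL3 A_24_P251764.

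Among the 73 probes of the receptors, inhibitors, transcription factors and other cytokines, 0 were called for the mean over lines or for 3 to 24 h against the first hour. Within a line, 3 were lower in HCC1954, where 3.82% of all probes were called, 2 higher and 2 lower in MDA-MB-361 (6.33%), 2 higher and 3 lower in T-47D (9.27%), and 5 higher and 6 lower in ZR-75-30 (8.10%), with none in MDA-MB-231 (1.58%). IL6ST, the shared receptor subunit of IL6, IL11 and LIF, fell by 0.45 in T-47D (limma adjusted p = 0.0355). In ZR-75-30 it fell by 0.50 (limma adjusted p = 0.0222). Both channels were well above background on all 6 arrays of both lines. In the other lines IL6ST was at -0.25 to -0.24, and no difference between lines was shown (limma F adjusted p = 0.661). IL6R fell by 0.30 in T-47D and by 0.28 in ZR-75-30. SOCS3, the feedback inhibitor of this receptor pathway, rose by 0.45 in ZR-75-30 (adjusted p = 0.00106) and by 0.29 in MDA-MB-361 by probe A_23_P207058, while its dimmer probe was at -0.08 and -0.09. NFKBIA, the inhibitor of NF-kappaB, rose by 0.35 in T-47D and 0.33 in ZR-75-30. It was at 0.13 to 0.24 in the other lines, again without a difference between lines (limma F adjusted p = 0.573). CCL2, a monocyte attractant, fell by 0.60 in T-47D (limma adjusted p = 2.84e-05). Of the 73 probes, 3 differed in log ratio between lines, those of CCL2, IL6R and CCR6, where 6.45% of all probes did (limma F). In HCC1954, CEBPB fell by 0.24 and CSF2 by 0.23. By the same probe CEBPB was at -0.16 to -0.10 in the other lines (limma F adjusted p = 0.556). TNFAIP3 fell in HCC1954 by 0.35 by probe A_24_P166527 but was at -0.03 by its brighter probe.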

How the data were processed

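The 30 arrays (1 per line and time, grouped by cell line from the labels) were deposited as scanner output. Per the file headers, Feature Extraction 9.5.1.1 corrected the background, normalized the dyes and gave log10 ratios, and the deposited files hold intensities of both channels beside them. A log2 matrix of ratios from the authors, centred on a median of 0 and running in the same direction, was used as an alternative. Arrays carry no sequencing depth, so their number limits the precision.

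Log ratios were changed to log2, spots marked as outliers were dropped, repeated spots were averaged per probe and arrays were centred on their median. Vehicle levels were A-quantile normalized. Tests were made with limma 3.58.1 in R 4.3.3 over all probes, with slide as a random block (correlation 0.286 for levels and 0.0655 for log ratios) except for the mean over lines, and Benjamini-Hochberg adjustment at 0.05. On simulated data with 200 of 41000 probes changed, the share recovered was 92.5% for levels between lines (changed by 2 on the log2 scale in 1 line). With a change of 1 it was 78.5% for the late vehicle level and 99.5% for the late log ratio. The share was 100% for the mean log ratio over lines, 96% within a line and 89.5% between lines. The simulated noise was independent between arrays, without the correlation within slides, and the lines did not vary in their response. The test of the mean over lines rests on the spread between lines. Its share of 100% therefore does not say how often it would find a change in these data. A change of 1 is larger than the member mean log ratios given above, so these shares do not say how often such smaller changes would be found. Alternatives were normexp with an offset of 50 and loess or median scaling, 75th percentile scaling, the matrix, filters on dim spots, outliers kept, batch settings, the time point as a block and leaving out times, lines or an array. Each gene was read from the probe with the highest mean vehicle level, other probes being given where they differ, with CXCL3 given by both, and A_23_P89380 set aside after its place was seen. The members, lists and tests were chosen with earlier results of these data known. Figures were drawn with matplotlib in Python.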

Additional observations from a re-analysis of the deposited data

Results flagged for a closer look

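Groups of 6 arrays of a line in which every spot was well above background were searched for a single array far from the others, by the gap to its nearest neighbour over the range. Of 44 such groups, 4 held one, where about 1 in 20 is expected by chance. CXCL2 in vehicle-treated HCC1954 at 1 h was at 14.09, with a gap of 0.665 of the range, and its second probe at 10.74, with a gap of 0.729. These come from the same array and are not independent. IL1B in MDA-MB-231 at 12 h had a log ratio of -0.81 (gap 0.667), on the array where most members were low. The CXCL3 probe A_24_P251764 in HCC1954 at 30 min had a log ratio of -0.65 (gap 0.644), which the other CXCL3 probe, at -0.11, did not share. The same probe was above 0 on all 4 arrays with a value in MDA-MB-231, from 0.11 to 0.56, and below 0 on all 5 with a value in T-47D, from -0.85 to -0.04, and the means, 0.30 and -0.46, were 0.76 apart. The F test of a difference over the 5 lines missed the threshold for it (limma adjusted p = 0.0511). The causes were not tested.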

How the results depend on the processing

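The number of member probes that differed in vehicle level between lines, 12, stayed within 1.5 times under 15 of 16 alternatives; with only spots well above background it was 4, the number of probes so measured in every line. The counts of 0 for the late vehicle level and for the mean log ratio over lines did not change under any alternative run. The count of calls within a line, 3, was 0 with normexp and median scaling, 1 with only spots well above background in both channels (LIF A_24_P122137 in MDA-MB-361, not one of the 3), 5 without the slide block, 5 in the first scan batch alone, 0 in the second scan batch alone (an alternative chosen after seeing the data) and 0 to 3 when 1 time point or the ZR-75-30 array at 6 h was left out, with 0 without 1 h, without 12 h or without 24 h. It was 2 with normexp and loess, the CXCL2 probe A_24_P257416 in HCC1954 and IL8 in ZR-75-30, neither of them one of the 3. The 0 calls between lines became 1 with normexp and loess, the matrix values, only spots well above background, no slide block and scan batch as a term, 2 in the first scan batch alone, and 0 to 1 when 1 time point was left out, with 1 without 3 h. The 0 calls for the late log ratio became 1, IL6, with 30 min alone as the early time (-0.36, limma adjusted p = 0.0481). This is the same as leaving out 1 h. At 30 min, ZR-75-30, HCC1954 and MDA-MB-231 belonged to the second scan batch, whereas most later arrays belonged to the first. Time and scan batch are thus partly mixed in this setting, and their shares in the call were not tested. The calls were 0 to 1 over all times and lines left out. The adjusted p of IL6 over its alternatives ran from 0.0481 to 0.771. The 7 changes of 2-fold were 0 with normexp and loess and 0 at 3-fold; the 1 with both channels well above background became 0 with normexp and loess, 7 with normexp and median scaling, 4 in the matrix, 3 with outliers kept and 0 at 3-fold.

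Of 301 values of single genes under alternatives, 255 kept direction and side of the threshold, 34 lost the threshold, 7 gained it and 5 turned direction. The last were IL8 in HCC1954 with normexp and median scaling (0.32), CXCL1 in MDA-MB-231 minus ZR-75-30 in the first scan batch (-0.41), the CXCL3 probe A_24_P251764 in HCC1954 minus MDA-MB-231 in the first scan batch (-0.28) and without 30 min (-0.17, and up to 0.70 with another time left out), and the CXCL2 probe A_24_P257416 in T-47D in the second scan batch (0.01). IL11 in MDA-MB-361 passed the threshold in the first scan batch alone (adjusted p = 0.0328), without the slide block (0.0465), with scan batch as a term (0.0473), without 6 h (0.0486) and with the time block below. The cause was not tested in any of these. In the second scan batch alone, with 1 array of HCC1954 assumed to vary like the other lines, 7 differences between HCC1954 and MDA-MB-231 lost the threshold, among them IL6 (3.39, limma adjusted p = 0.0604) and CXCL2 (2.20, 0.231). Replicate numbers stand for the time points, so with the time point as a replicate block, an alternative chosen after seeing the data, 11 member probes differed in vehicle level, 5 were called within a line (the 3, IL11 and the CXCL3 probe A_24_P183150 in MDA-MB-361) and 1 between lines; of the single genes, IL11 in MDA-MB-361 changed its call (limma adjusted p = 0.0418). Signals close to background limit IL1A, CCL20, most values of MDA-MB-361 and all log ratios of exactly 0.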
